A study of Mus musculus with 9 samples.

Results

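The MAP kinase phosphatases are the dual-specificity phosphatases that switch off the MAP kinases ERK, JNK and p38. The 10 genes Dusp1, Dusp2, Dusp3, Dusp4, Dusp5, Dusp6, Dusp7, Dusp8, Dusp10 and Dusp16 were chosen by symbol from the 24061 gene symbols of the count table. They fill 11 of its 32850 rows. RNA-seq was carried out on bone-marrow-derived macrophages (BMDMs) of C57BL/6J mice, which are primary macrophages grown from marrow with L-cell conditioned medium. On day 8, after a day without serum, the cells received DMSO (Veh and LPS groups) or 500 nM T0901317 (T0), an agonist of the nuclear receptor LXR, for 3 hours. The LPS and T0+LPS groups then received 10 ng/mL lipopolysaccharide (LPS), the bacterial ligand of Toll-like receptor 4 (TLR4), for 2 hours in the same medium. Each group holds 3 libraries from separately differentiated cultures, and the sources used here do not say whether the cultures shared animals. They also do not give the harvest time of Veh, so LPS and any added culture time cannot be told apart in comparisons with Veh, and no library received T0 without LPS. Libraries are named by group and number, such as LPS 1.

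MAP kinases become active when a MAP2 kinase phosphorylates a threonine and a tyrosine in their activation loop, and a dual-specificity phosphatase reverses this by removing both phosphates. Many of these phosphatase genes are themselves induced by MAP kinase signaling and so form a negative feedback loop. In macrophages TLR4 ligation activates ERK, JNK and p38 within minutes, and DUSP1 is known for limiting p38 activity and cytokine production after LPS. The family is grouped by location and substrate. DUSP1, DUSP2, DUSP4 and DUSP5 are inducible nuclear enzymes, DUSP6 and DUSP7 are cytoplasmic and prefer ERK, DUSP8, DUSP10 and DUSP16 prefer JNK and p38, and DUSP3 (VHR) is a small phosphatase without the kinase-binding domain of the others.

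The promoter stretches of 5 members are shown because these genes either had the largest rise (Dusp2) or the largest fall (Dusp6) described below or held motifs that few promoters contain. They come from the RefSeq promoter set (build GRCm38.p6, the mm10 assembly), which holds 9 of the 10 members; Dusp4 is named only. Each stretch lies upstream of the RefSeq start and reads 5′ to 3′ on the gene's strand.

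Dusp2 (chr2:127335979-127336158, plus strand, the 180 bases before the start): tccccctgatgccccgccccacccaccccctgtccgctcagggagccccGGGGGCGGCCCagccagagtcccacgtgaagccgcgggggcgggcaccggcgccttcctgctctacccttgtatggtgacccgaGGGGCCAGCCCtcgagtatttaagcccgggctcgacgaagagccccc
Dusp6 (chr10:99263051-99263230, plus strand, the 180 bases before the start): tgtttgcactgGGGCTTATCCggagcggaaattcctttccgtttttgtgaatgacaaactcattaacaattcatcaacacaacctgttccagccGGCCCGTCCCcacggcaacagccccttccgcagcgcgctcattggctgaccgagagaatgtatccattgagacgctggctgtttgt
Dusp1 (chr17:26508588-26508635, minus strand, 163 to 116 bases before the start): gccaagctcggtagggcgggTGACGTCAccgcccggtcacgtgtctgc
Dusp8 (chr7:142095320-142095411, minus strand, 127 to 36 bases before the start): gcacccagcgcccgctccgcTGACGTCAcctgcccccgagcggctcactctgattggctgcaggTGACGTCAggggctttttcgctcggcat
Dusp5 (chr19:53529043-53529102, plus strand, 102 to 43 bases before the start): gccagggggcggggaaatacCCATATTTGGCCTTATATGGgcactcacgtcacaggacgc

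Capitals mark matches to a loose NF-kB pattern, GGGNNNNNCC on either strand, in Dusp2 and Dusp6. In Dusp1 and Dusp8 they mark the palindromic cyclic AMP response element (CRE) TGACGTCA, and in Dusp5 a pair of adjoining CArG boxes, the site of serum response factor. The Dusp5 stretch also holds NF-kB pattern matches, starting 91 and 90 bases before the start, that are not marked. All 60 bases of that stretch lie in an exon of the antisense gene AC137853.2. The counted Dusp5 row starts at 53529318, downstream of the RefSeq start at 53529145. The CRE occurred once in the Dusp1 window, 143 bases before the start, and at 107 and 63 bases before the Dusp8 start, against 1.55% of 32851 promoters with a match in the same 250-base window. The CArG box was found in Dusp5 alone among the 9, starting 82 and 72 bases before the start, against 1.47% of all promoters. Dusp1 and Dusp5 both rose with LPS, and Dusp8 rose by a small amount in a call that did not hold under every setting. Dusp2 and Dusp16 rose more than these genes and held neither motif in their windows. A part of either motif in the response to LPS was not tested. The NF-kB pattern was common. It was present in 7 of the 9 windows, against 45.8% of all promoters. These were Dusp1, Dusp2 and Dusp5, which rose with LPS, and Dusp3, Dusp6, Dusp7 and Dusp10, which fell. The windows of Dusp8 and Dusp16, which rose, held no match. A link of the pattern with direction was not tested. None of the 9 windows held the AP-1 heptamer TGANTCA (6.75% of all promoters), TATAAA (12.4%) or the LXR half-site repeat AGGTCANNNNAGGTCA (0.0152%). These letters were searched on both strands and their matches are descriptions of sequence only.

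Total counts ran from 13299044 to 16467983 per library. The markers of macrophages, including Csf1r, Cd68 and Lyz2, summed to 23329 to 25533 CPM (reads of a gene scaled to the size of its library, per 1000000 reads) in Veh, 25865 to 27178 in LPS and 28084 to 29762 in T0+LPS. Of the 7 macrophage markers listed, 6 were in the table. Of these, 5 had a mean of at least 1 CPM in every group, and Itgam was listed at 0 in all 9 libraries. A count of 0 need not mean absent RNA, because the Dusp16 row of 4146 bases, all shared with another row, also held no reads. Whether this applies to Itgam, or to S100a9 below, was not tested. Markers of other cells were low. The 5 neutrophil markers in the table summed to 0.748 to 1.33 CPM in Veh, 2.16 to 3.20 in LPS and 1.81 to 1.87 in T0+LPS, with S100a9 at 0 throughout, and the 3 dendritic cell markers to 0.232 to 0.529, 2.24 to 2.91 and 1.87 to 2.99 CPM, of which Xcr1 alone reached 1 CPM. Their part in the results below was not tested. The B cell, T cell and fibroblast markers each stayed below 1 CPM, and the 3 erythroid markers were at 0. In bulk RNA, fewer cells of a type and less RNA per cell cannot be told apart. Known targets of both treatments changed. Tnf, Il1b and Ptgs2 rose by log2 fold changes of 6.08, 9.34 and 9.23 with LPS (adjusted p = 1.29e-10, 5.65e-17 and 1.46e-17), and the LXR targets Abca1, Abcg1 and Srebf1 were higher in T0+LPS than in LPS by 1.47, 2.09 and 1.30 (adjusted p = 1.36e-10, 8.04e-14 and 4.83e-11). Gene-level p-values were computed by the quasi-likelihood F-test of edgeR and adjusted over all genes tested by the Benjamini-Hochberg method, and a gene is called at an adjusted p under 0.05.

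All 10 members passed the test between LPS and Veh, of which the small changes of Dusp7, Dusp8 and Dusp10 did not pass under every setting tried. In LPS against Veh, 6 of the 10 members were higher and 4 were lower, beside 32.9% of 9559 genes tested called higher and 31.2% called lower. No library of one group overlapped the other for any of the 10, which held for 67.3% of all genes tested. A difference was therefore common among all genes. The members' median absolute log2 fold change was 1.18, beside 0.34 over all genes tested. Dusp2, Dusp16, Dusp4, Dusp5, Dusp1 and Dusp8 rose, in order of size, and Dusp6, Dusp10, Dusp3 and Dusp7 fell.

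**Figure D1:**
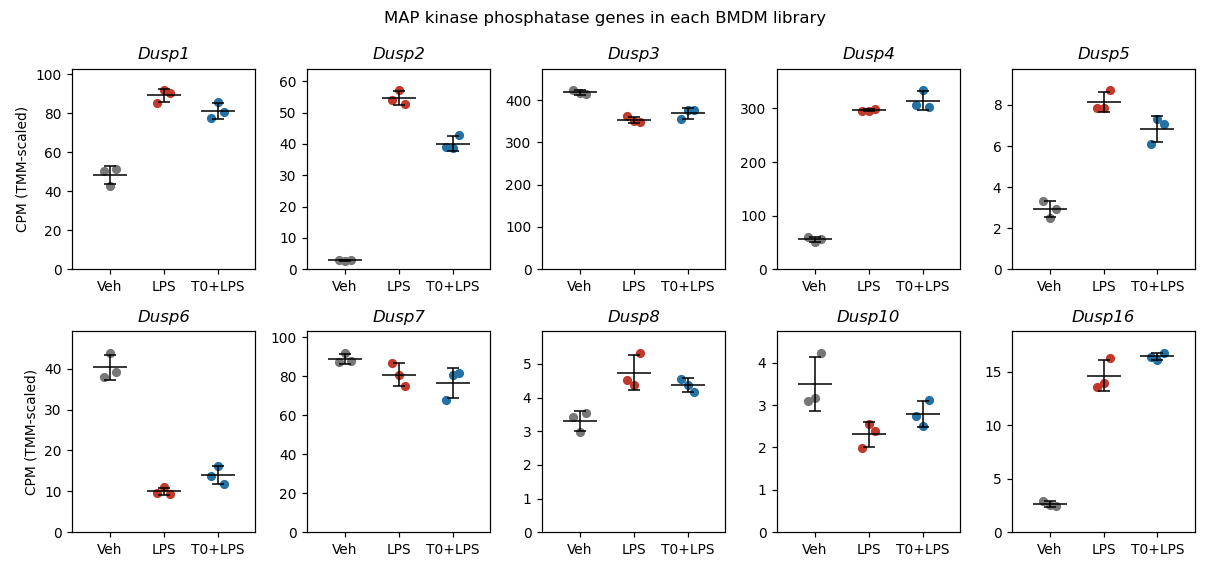
Each panel plots 1 MAP kinase phosphatase gene, with the TMM-scaled CPM on a vertical axis that starts at 0 and has its own range, and the groups Veh, LPS and T0+LPS on the horizontal axis. Points are libraries, and bars are the mean ± SD of 3 libraries. Dusp2 sits between 2.71 and 3.01 CPM in Veh, between 52.8 and 57.2 in LPS and between 38.6 and 42.9 in T0+LPS, while Dusp6 runs the other way, from 37.9 to 43.8 down to 9.27 to 11.1 and then 11.9 to 16.3.

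Dusp2, also called PAC-1 and found mainly in immune cells, gave the largest change of the family. Its row lies at chr2:127336159-127338377 on the plus strand in mm10 and has 4 exons. Levels in the Veh libraries were 2.89, 2.71 and 3.01 CPM, resting on 41 to 54 reads a library. They were 54.1, 57.2 and 52.8 CPM in LPS and 39.0, 38.6 and 42.9 CPM in T0+LPS. The groups thus formed 3 separate bands, with Veh lowest and T0+LPS between Veh and LPS. Dusp2 was 19.0-fold higher in LPS than in Veh (log2 fold change 4.25, SE 0.09, adjusted p = 3.99e-16). This placed it at rank 117 of 9559 genes by log2 fold change.

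Dusp4 (MKP-2), a nuclear phosphatase for ERK and JNK, rose from a higher starting level. Its row spans chr8:34807610-34819894 on the plus strand, with 4 exons. It was read at 59.3, 50.7 and 57.2 CPM in Veh, 296, 294 and 298 CPM in LPS, and 306, 334 and 303 CPM in T0+LPS. All LPS libraries were several times above all Veh libraries and lay within a narrow range of each other. The rise was 5.31-fold (log2 fold change 2.41, SE 0.05, adjusted p = 7.71e-16).

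Dusp1 (MKP-1), the classical LPS-induced phosphatase for p38 and JNK, was already well expressed without LPS. The row at chr17:26505591-26508472 on the minus strand, with 4 exons, gave 50.5, 42.8 and 51.2 CPM in Veh, 85.4, 91.9 and 90.5 CPM in LPS, and 77.4, 85.7 and 80.8 CPM in T0+LPS. Every library with LPS was above every Veh library, and the T0+LPS libraries overlapped the LPS libraries. After 2 hours of LPS it was 1.85-fold higher (log2 fold change 0.89, SE 0.06, adjusted p = 3.53e-09), less than the rises of Dusp2, Dusp4 and Dusp5 in the same nuclear group.

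Dusp5, a nuclear phosphatase specific to ERK, was low in all groups. It was read at 3.31, 2.51 and 2.95 CPM in Veh, 7.85, 7.86 and 8.72 CPM in LPS, and 6.09, 7.31 and 7.07 CPM in T0+LPS, on 38 to 113 reads a library. Its row, chr19:53529318-53541322 on the plus strand with 4 exons, holds 1155 exon bases, the fewest of the members. The rise with LPS was 2.76-fold (log2 fold change 1.47, SE 0.15, adjusted p = 2.42e-07). An antisense gene lies in its span, as antisense genes do in those of Dusp3 and Dusp16. Exons of the protein-coding gene Cfap97d1, on the other strand, also lie in the span of Dusp3. No other counted row shares exon bases with Dusp3. The strand setting of the read counting is not given in the sources used here.

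Dusp6 (MKP-3), the cytoplasmic phosphatase for ERK and a known readout of ERK signaling, moved against the inducible nuclear members. Its row lies at chr10:99263231-99267489 on the plus strand and has 3 exons. Levels were 37.9, 43.8 and 39.3 CPM in Veh, 9.51, 11.1 and 9.27 CPM in LPS, and 13.9, 16.3 and 11.9 CPM in T0+LPS. The LPS libraries were lowest, the T0+LPS libraries lay just above them without overlap, and both were far below Veh. Dusp6 was 4.03-fold lower in LPS than in Veh (log2 fold change -2.01, SE 0.09, adjusted p = 7.17e-12). It stood at rank 9466 of 9559 genes from the largest rise. Dusp7 (MKP-X), the other cytoplasmic ERK phosphatase, hardly moved. At chr9:106368632-106375723 on the plus strand, it was read at 87.1, 91.8 and 87.8 CPM in Veh, 86.8, 80.4 and 74.9 CPM in LPS, and 67.6, 80.8 and 81.3 CPM in T0+LPS. The highest LPS library came within 1 CPM of the lowest Veh library. The log2 fold change of Dusp7 was -0.14 (SE 0.06, adjusted p = 0.0409), and its call was lost when any library but LPS 1 was left out, with adjusted p = 0.054, 0.143 and 0.0673 without Veh 1, 2 and 3, and 0.0513 and 0.107 without LPS 2 and 3. It was also lost in DESeq2 (0.102) and with all 9 libraries in the fit (0.0794), in a range of 4.88e-06 to 0.143 over all alternatives. Within a library, Dusp6 gave 0.435, 0.477 and 0.448 reads per Dusp7 read in Veh and 0.110, 0.138 and 0.124 in LPS, a difference of -1.88 between the mean log2 ratios in which no scaling factor enters. The exact two-sided permutation p was 0.1, the smallest that 3 against 3 libraries can give. It is the p of any ratio without overlap between the groups, and this and the ratios below were chosen with the results for these genes known, so they describe the same reads on another scale and add no support.

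Among the phosphatases that prefer JNK and p38, Dusp16 (MKP-7) rose strongly. It gave 2.94, 2.51 and 2.49 CPM in Veh, 13.6, 14.0 and 16.3 CPM in LPS, and 16.4, 16.2 and 16.8 CPM in T0+LPS. All LPS libraries lay well above Veh, and the T0+LPS libraries reached from the top of the LPS range to just above it. The rise was 5.50-fold (log2 fold change 2.46, SE 0.13, adjusted p = 9.17e-11). Dusp16 has 2 rows at chr6:134715468-134792628 on the minus strand. All reads fell in the row of 5112 bases, of which 966 are not shared with the other row, and the row of 4146 bases held none, so these levels rest on the 966 bases.

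Dusp8 and Dusp10 were near the low end of what these libraries can measure, with 45 to 69 and 25 to 73 reads a library. Dusp8 (chr7:142079487-142095284, minus strand, 7 exons), a JNK and p38 phosphatase best known from brain and heart, was read at 3.42, 2.98 and 3.53 CPM in Veh, 4.52, 4.37 and 5.33 CPM in LPS, and 4.57, 4.39 and 4.16 CPM in T0+LPS. All libraries with LPS were above all Veh libraries. The log2 fold change of Dusp8 with LPS was 0.51 (SE 0.16, adjusted p = 0.0116). This call was lost without LPS 3 (adjusted p = 0.0604), with library totals as the only scaling (0.21) and in DESeq2 (0.0699), in a range of 0.00782 to 0.21 over all alternatives.

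Dusp10 (MKP-5, at chr1:184034461-184075636 on the plus strand), which dephosphorylates JNK and p38 and restrains cytokine production in immune cells, went down. It was read at 3.10, 3.17 and 4.23 CPM in Veh, 1.98, 2.55 and 2.39 CPM in LPS, and 2.74, 2.51 and 3.12 CPM in T0+LPS. The LPS libraries lay below Veh and 1 of the Veh libraries stood above the other two, while T0+LPS overlapped both other groups. The log2 fold change of Dusp10 was -0.59 (SE 0.20, adjusted p = 0.0164), and the call was lost without Veh 3 (adjusted p = 0.0922), without LPS 1 (0.0718) and in DESeq2 (0.0876), in a range of 0.00109 to 0.0922 over all alternatives.

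Dusp3 (VHR, at chr11:101971144-101984791 on the minus strand) was the most abundant member without LPS and changed little. Its levels were 424, 417 and 414 CPM in Veh, 362, 351 and 349 CPM in LPS, and 354, 378 and 376 CPM in T0+LPS. Veh stood above both other groups, which overlapped each other. By the fit, Dusp3 decreased by 15.1% with LPS (log2 fold change -0.24, SE 0.04, adjusted p = 6.15e-05). Without composition factors, with library totals alone, the median log2 fold change of all genes moved to -0.28. The values of Dusp3 and Dusp7 were then -0.52 and -0.42, Dusp10 was at -0.88 and Dusp8 at 0.23, and no member changed direction.

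**Figure D2:**
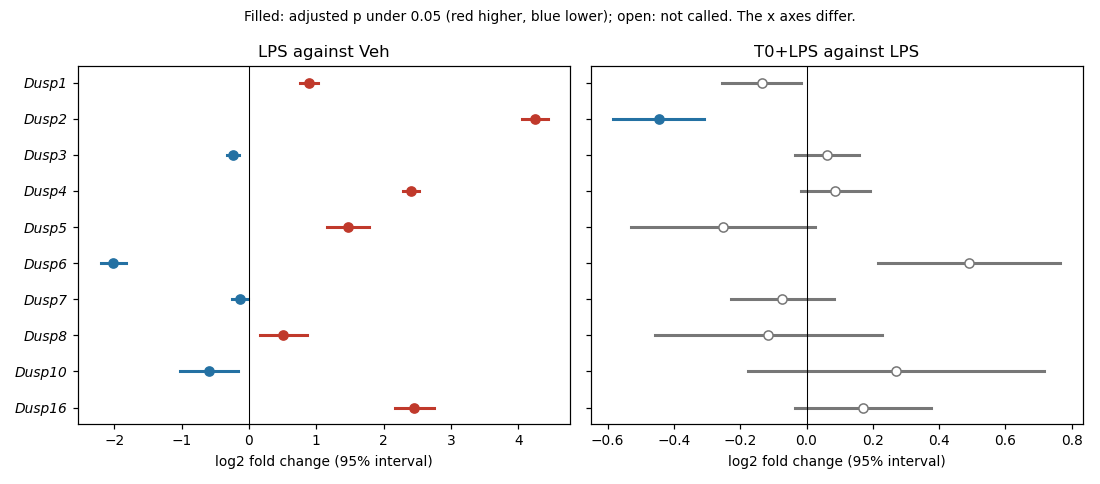
Points give the log2 fold change of each MAP kinase phosphatase gene (rows) in LPS against Veh (left) and T0+LPS against LPS (right), with 95% intervals as lines, on horizontal axes of different range. Filled points passed an adjusted p of 0.05, red for higher and blue for lower, and open points did not: all 10 are filled on the left, from -2.01 for Dusp6 to 4.25 for Dusp2, and Dusp2 alone is filled on the right, at -0.45.

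The make-up of the phosphatase transcripts differed between Veh and LPS. Per kilobase of exon bases covered by no other row, the 10 members summed to 195 to 202 CPM per kb in Veh, 338 to 340 in LPS and 325 to 351 in T0+LPS. In Veh the order by mean CPM per kb was Dusp3 (99.5), Dusp7 (27.7), Dusp1 (24.8), Dusp4 (23.0), Dusp6 (14.4), Dusp16 (2.74), Dusp5 (2.53), Dusp2 (1.77), Dusp10 (1.29) and Dusp8 (0.687). The neighbours Dusp1 and Dusp4, and Dusp16 and Dusp5, overlapped between libraries. In LPS Dusp4 led with 122 CPM per kb, followed by Dusp3 with 84.3, Dusp1 with 46.0, Dusp2 with 33.8, Dusp7 with 25.1, Dusp16 with 15.1, Dusp5 with 7.05 and Dusp6 with 3.56, and only the last pair, Dusp8 (0.983) and Dusp10 (0.851), overlapped. Dusp2, behind Dusp6 in Veh, was thus ahead of it in LPS. With the deposited length of Dusp16 in place of its 966 unshared bases, its levels would be 0.518 CPM per kb in Veh and 2.86 in LPS.

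As shares of that sum, Dusp3 made up 50.2% ± 0.735 (SD, n = 3) in Veh and 24.9% ± 0.507 in LPS. Dusp4 went from 11.6% ± 0.732 to 36.0% ± 0.303 and Dusp2 from 0.894% ± 0.0376 to 9.98% ± 0.390. The share of Dusp6 was 7.28% ± 0.693 in Veh and 1.05% ± 0.101 in LPS. That of Dusp1 was 12.5% ± 1.02 and 13.6% ± 0.507, which overlapped. Inside each library, Dusp4 gave 0.140, 0.122 and 0.138 reads per Dusp3 read in Veh and 0.817, 0.838 and 0.854 in LPS (difference of the mean log2 ratios 2.65).

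**Figure D3:**
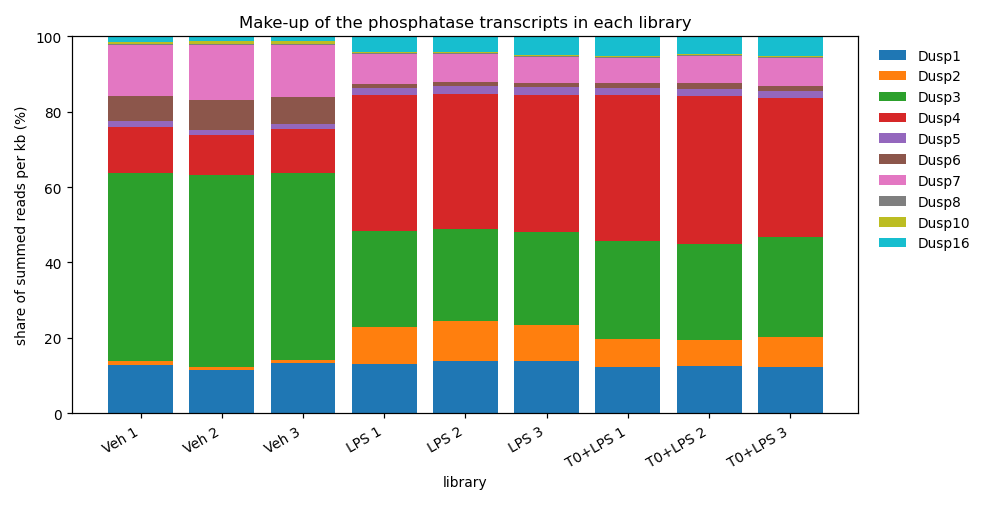
Stacked bars give, for each of the 9 libraries on the horizontal axis, the share in percent of each MAP kinase phosphatase gene in the summed CPM per kilobase of unshared exon bases. The Veh libraries have about 50.2% Dusp3 and 11.6% Dusp4, and the LPS libraries about 24.9% Dusp3 and 36.0% Dusp4, with the replicates of a group alike.

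The next comparison asks what an LXR agonist given ahead of LPS did to the family. It was Dusp2 that passed the test. In T0+LPS against LPS, 1 member, Dusp2, was lower and 0 were higher by edgeR, beside 1.83% of 9348 genes tested called lower and 1.35% called higher. At an unadjusted p under 0.05 there were 2 members lower, Dusp1 and Dusp2, and 1 higher, Dusp6, beside 7.43% of all genes tested lower and 6.46% higher at that threshold. DESeq2 and limma-voom also called 0 members higher. For 4 of the 10 members, Dusp2, Dusp4, Dusp5 and Dusp6, the libraries of one group lay all on one side of the other, beside 19.1% of all genes tested. The median absolute log2 fold change of the members was 0.15, beside 0.085 over all genes tested. This comparison and that of LPS against Veh share the LPS libraries, so a chance deviation of those libraries would enter both with opposite sign.

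Dusp2, the member with the largest rise in LPS against Veh, decreased by 26.6% with T0 (log2 fold change -0.45, SE 0.06, 95% interval -0.58 to -0.31, adjusted p = 0.000994). All 3 T0+LPS libraries, at 38.6 to 42.9 CPM, lay below all 3 LPS libraries, at 52.8 to 57.2 CPM. The call held without each library in turn, with log2 fold changes from -0.50 to -0.41 and adjusted p up to 0.00929. Dusp2 stayed far above Veh, at 1399% of the Veh mean with T0+LPS against 1907% with LPS. The same reads can be set against those of other members. Against Dusp4, Dusp2 gave 0.183, 0.194 and 0.177 reads per read in LPS and 0.127, 0.115 and 0.142 in T0+LPS (difference of the mean log2 ratios -0.53). Against Dusp1, it gave 0.634, 0.622 and 0.584 in LPS and 0.503, 0.450 and 0.531 in T0+LPS (-0.31). Its share of the family's CPM per kb was 9.98% ± 0.390 in LPS and 7.35% ± 0.540 in T0+LPS.

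Dusp6, the member with the largest fall under LPS, gave a log2 fold change of 0.49 (SE 0.13, 95% interval 0.22 to 0.77) and an adjusted p of 0.0523, just outside the threshold. The T0+LPS libraries, at 11.9 to 16.3 CPM, were above the LPS libraries, at 9.27 to 11.1 CPM, with a gap smaller than the spread within T0+LPS. T0+LPS was at 34.7% of the Veh mean and LPS at 24.7%. Of 16 alternatives, 10 did not call it and 6 did. It was not called in DESeq2 (adjusted p = 0.0711), in limma-voom (0.0667), with library totals (0.0547), without LPS 1 (0.217), without LPS 3 (0.108), without T0+LPS 1 (0.0959) or without T0+LPS 2 (0.247). It was called without LPS 2 (0.0428), without T0+LPS 3 (0.0216), with no filter on low counts (0.00142), with all 9 libraries in the fit (0.0269) and with reads thinned to the smallest library (0.0497), among others. The adjusted p thus ranged from 0.00142, with no filter, to 0.247. The fit with no filter also called more of all genes, 225 higher and 285 lower beside 126 and 171. Apart from that fit, the lowest adjusted p was 0.0108, with the replicate block. Per Dusp7 read, Dusp6 gave 0.110, 0.138 and 0.124 reads in LPS and 0.205, 0.202 and 0.146 in T0+LPS (difference of the mean log2 ratios 0.56).

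The other 8 members did not pass the test. Dusp1 had a log2 fold change of -0.13 (95% interval -0.25 to -0.02, adjusted p = 0.277) and Dusp5 one of -0.25 (-0.53 to 0.03, adjusted p = 0.423). For the abundant Dusp4, Dusp3 and Dusp7 the intervals were narrow. They ran from -0.02 to 0.19 for Dusp4, from -0.03 to 0.16 for Dusp3 and from -0.23 to 0.08 for Dusp7, so that changes outside these bounds were not seen at the 95% level. Dusp16 was at 0.17 (-0.04 to 0.38). For Dusp8 and Dusp10, with the fewest reads, the intervals were wider, from -0.46 to 0.23 and from -0.18 to 0.72. These intervals leave room for a lower level of Dusp8 or a higher level of Dusp10 that was not detected.

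Set against Veh directly, T0+LPS showed 5 members higher and 3 lower, beside 32.4% and 32.9% of 9636 genes tested. For 9 of the 10 there was no overlap between the libraries, beside 69.4% of all genes tested. The log2 fold changes of the called members were 3.78 for Dusp2, 2.60 for Dusp16, 2.47 for Dusp4, 1.19 for Dusp5, 0.73 for Dusp1, -1.54 for Dusp6, -0.23 for Dusp7 and -0.20 for Dusp3. Dusp8, at 0.37 (adjusted p = 0.0511), and Dusp10, at -0.35 (adjusted p = 0.12), were not called. In the order by CPM per kb, T0+LPS had Dusp4 (130), Dusp3 (87.9), Dusp1 (41.9), Dusp2 (24.8), Dusp7 (23.8), Dusp16 (17.0), Dusp5 (5.91), Dusp6 (5.01), Dusp10 (1.03) and Dusp8 (0.907). Unlike in LPS, where Dusp2 stood apart from Dusp7 and Dusp5 from Dusp6, these neighbours overlapped between libraries.

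The kinases, other phosphatases and targets around the family were read from 8 lists of 98 genes. Of the 68 tested in LPS against Veh, 34 were higher and 23 lower, beside 32.9% and 31.2% of all genes tested. The share of lower genes was near that of all genes, and the counts for single lists rest on 6 to 15 genes each. The MAP kinases themselves had 4 higher and 1 lower of 7 tested. The largest rise was Mapk11 (p38 beta) with a log2 fold change of 1.46 (SE 0.32), at low means of 0.621 CPM in Veh and 1.69 in LPS. The only called fall was Nlk with -0.31. Of 6 MAP2 kinases tested, 5 were higher, led by Map2k3, an activator of p38, at 1.35. The MAP3 kinases were split, with 5 higher and 6 lower of 15 tested, from Map3k6 at 1.55 to Map3k9 at -2.19. The kinases downstream of MAP kinases had 7 higher and 2 lower of 9 tested. Among them, Mapkapk2 (MK2), which p38 activates and which stabilizes cytokine mRNAs, rose by 2.42, from a mean of 339 CPM to 1805 CPM, and Mknk2 fell by 1.17 on the log2 scale.

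The 11 tested dual-specificity phosphatases that are not among the 10 members had 2 higher and 6 lower. They include Dusp9 (MKP-4), itself a MAP kinase phosphatase, which fell by 0.55 on the log2 scale (adjusted p = 0.00887) and is named after its value was seen, and enzymes with other substrates, with Dusp11, an RNA phosphatase, at 0.51 and Dusp22 at -1.11. Other phosphatases that act on MAP kinases had 4 higher and 2 lower of 6 tested, with Ppm1b at 0.86 and Ppm1d at -0.67. The Sprouty and Spred proteins, which inhibit the Ras and ERK pathway, had 3 higher and 3 lower of 6 tested. Spry1 had 1 read in all Veh libraries together and 52 to 60 reads in each LPS library, and Spry3 fell by 3.69 on the log2 scale, from 9.98 to 0.762 CPM. The AP-1 and immediate-early transcription factors had 4 higher and 3 lower of 8 tested. Junb rose by 1.55 and Fos fell by 4.38 on the log2 scale, from a mean of 76.3 CPM in Veh to 3.66 CPM in LPS.

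With T0, 6 of the 67 list genes tested in T0+LPS against LPS were called, 1 (1.49%) higher and 5 (7.46%) lower, beside 1.35% and 1.83% of all genes tested. They lay in 3 of the 8 lists. Atf3, a stress-induced transcription factor, was higher by a log2 fold change of 0.66 (adjusted p = 5.34e-06), with means of 1020 CPM in Veh, 226 in LPS and 358 in T0+LPS. Junb, Ier2 and Fosl2 of the same list were lower by -0.31, -0.41 and -0.29 (adjusted p = 0.00079, 0.00421 and 0.0117). Spry1 was lower by -0.87 (adjusted p = 0.03), with 26 to 43 reads a library in T0+LPS. Rps6ka2, a kinase of the RSK family, was lower by -0.22 (adjusted p = 0.0274). Fosl2 was not picked by the rule for these lists and is named after its value was seen.

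**Figure D4:**
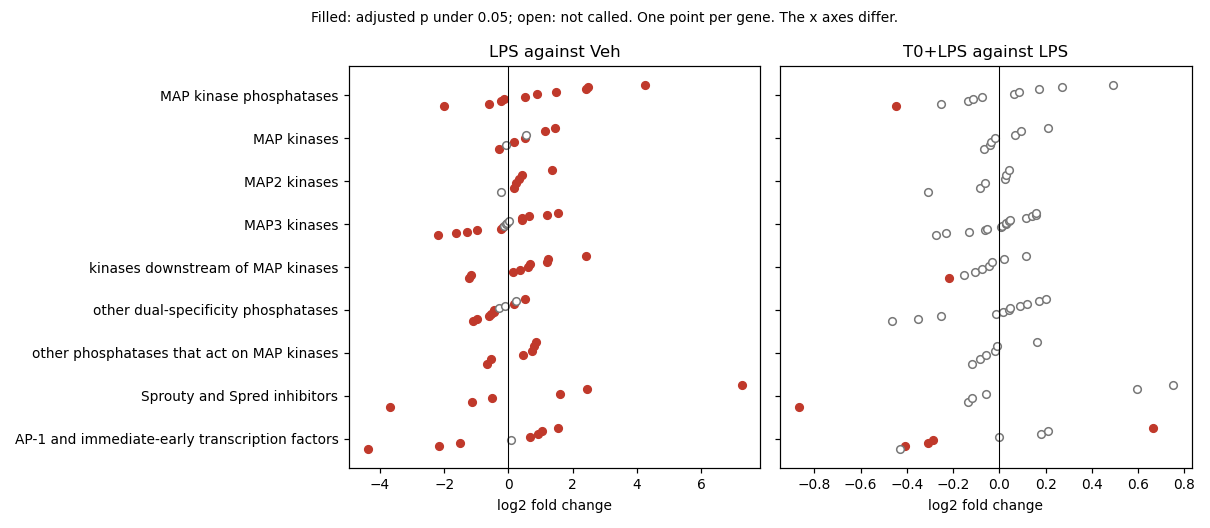
Each point is 1 tested gene of the list named on the vertical axis, placed by its log2 fold change in LPS against Veh (left) or T0+LPS against LPS (right), with different horizontal ranges. Filled points passed an adjusted p of 0.05 and open points did not: in the 8 lists below the family, 57 of 68 are filled on the left and 6 of 67 on the right.

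For Dusp1, Dusp2 and Dusp6 the genes with the most similar pattern were sought among 7299 genes with a mean of at least 5 CPM, by the mean absolute difference of log2 CPM over the 9 libraries after each gene was centred on its own mean. Nearest to Dusp2 were Phldb1 (0.104), the chemokine receptor-like gene Ccrl2 (0.106) and Ccrn4l, which encodes the circadian protein nocturnin (0.108). Ccrl2 had means of 32.6 CPM in Veh, 567 in LPS and 494 in T0+LPS. Nearest to Dusp6 were Lfng (0.113), a glycosyltransferase that modifies Notch, Cd300lb (0.120) and Snx30 (0.128). Cd300lb, an activating myeloid receptor, had means of 802, 211 and 283 CPM. Nearest to Dusp1 were Rcl1 (0.0494), Taf15 (0.0565) and Lrrfip1 (0.0623). The differences are smaller for Dusp1, whose own range over the groups was also smaller. These are descriptions over 9 libraries that fall into 3 groups.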

How the data were processed

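RNA-seq data of 9 BMDM libraries in 3 groups were used. The authors enriched poly(A) RNA, used cutadapt to remove adaptors and HISAT2 to align the reads to mm10, and counted them per RefSeq row with featureCounts, and deposited whole-number counts, which are the values used here. Versions are not given in the submitters' processing notes, but the paper of the study lists them. The strand setting is not given in these sources. A table of the authors' own comparison of T0+LPS with LPS (means, p-values and ratios) and a list of gene names from that of LPS with Veh were not used. Rows of a symbol were summed. Genes were filtered with filterByExpr and tested with edgeR 4.0.16 (TMM, quasi-likelihood F-test, Benjamini-Hochberg over all genes), 6 libraries per fit. The study used DESeq2, which was run as an alternative (1.42.0) with limma-voom (limma 3.58.1). CPM were scaled by TMM over the 9 libraries. SE is the log2 fold change divided by the root of F. Chi-square per degree of freedom between replicates was 2.75 to 7.18, so none were merged. Scripts were tested on simulated data. All 10 members are named. From each list, the called gene with the largest rise and the largest fall in LPS against Veh and in T0+LPS against LPS was named, with a mean of at least 1 CPM. The members, lists and ratios were chosen with earlier results of these data known.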

Additional observations from a re-analysis of the deposited data

How the results depend on the processing

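Each of the 10 members was fitted under 16 alternatives in each of the 3 comparisons. Calls and directions held in 146 of 160 fits for LPS against Veh, where the other 14 lost the calls of Dusp7, Dusp8 or Dusp10, in 153 of 160 for T0+LPS against LPS and in 157 of 160 for T0+LPS against Veh, where Dusp8 (2 fits) or Dusp10 (1 fit) became called. For each of these changes the cause was not tested. Against Veh, 4 members were lower with LPS in the fit reported, 2 in DESeq2 and 2 to 3 without each library in turn, the lowest without Veh 3. For T0+LPS against LPS, 0 members were higher, and 1, Dusp6, with no filter on low counts, with all 9 libraries, after thinning, with the replicate block and, chosen after seeing the data, at an adjusted p under 0.10, and 0 to 1 without each library in turn. Dusp7 in T0+LPS against LPS turned from -0.07 to 0.0084 without T0+LPS 1, in a range of -0.12 to 0.01 over the libraries left out, and was called in none.

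With library totals alone, 1696 genes were higher and 5408 lower in LPS against Veh, beside 3148 and 2982, and 1661 and 5520 in T0+LPS against Veh, beside 3121 and 3172. In T0+LPS against LPS, 126 genes were higher and 171 lower, and 225 and 285 with no filter. Leaving out each library gave 59 to 167 higher and 82 to 191 lower, with the lowest of both without LPS 1. Without T0+LPS 2, 78 were higher and 94 lower, and without T0+LPS 1, 103 were lower.

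Deviations of same-numbered libraries from their group means correlated at -0.104 to 0.038 over 7299 genes, in LPS with Veh and T0+LPS with LPS. Veh and T0+LPS were not compared in this way. With 3 libraries a group, these values cannot decide whether the numbers pair libraries. The main fits treat the libraries as unpaired. The replicate block gave 155 genes higher and 230 lower in T0+LPS against LPS, called Dusp6 (log2 fold change 0.49, adjusted p = 0.0108) and lost Dusp7 in LPS against Veh (-0.14, adjusted p = 0.0521). It changed no other call of a member. Dusp8 and Dusp10 had 25 to 73 reads a library. Whether depth had a part in their lost calls was not tested.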
